A study of Mus musculus with 6 samples.

Results

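miRNAs linked to inflammation were measured in N2A (Neuro2A) cells, a mouse neuroblastoma line: mmu-miR-21a, mmu-miR-146a and mmu-miR-146b, written below without the species prefix. A further one, mmu-miR-155, was looked for by name and had no entry. Members were taken by name from 1080 listed small RNA entries, keeping every mouse-named arm and variant of these 4 base names, which gave 5 entries: 2 for miR-21a, 1 for miR-146a and 2 for miR-146b. There were 6 libraries from total RNA. Cells of the si-NC group (3 libraries) were given a control siRNA and cells of the si-circCpsf6 group (3 libraries) an siRNA against the circular RNA circCpsf6, each at 100 nM with a lipid transfection reagent. The comparison asks how levels differ once circCpsf6 is targeted; circCpsf6 itself was not analysed here, so how far it was silenced is not given. The labels name a single line and no age, genotype or separate cultures, and each p-value therefore reflects the spread among these libraries alone, which may be technical.

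MicroRNAs (miRNAs) are short RNAs that guide Argonaute proteins to messenger RNAs, mainly by pairing of the seed, bases 2 to 8 from the 5′ end. miR-146a and miR-155 are induced by NF-kB signalling in immune cells and microglia. miR-146a and miR-146b then dampen that signalling by repressing the adaptors Traf6 and Irak1, whereas miR-155 mostly favours inflammation, in part by repressing Socs1. miR-21 is an abundant miRNA of many proliferating and stressed cells and represses Pdcd4.

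The mature sequences below are RefSeq's (GRCm38.p6), shown because the 2 miR-146 forms are near copies while miR-21a has another seed; all 5 listed arms were matched by name. Capitals mark the seed.
miR-21a-5p: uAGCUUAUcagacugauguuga
miR-21a-3p: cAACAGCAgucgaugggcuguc
miR-146a-5p: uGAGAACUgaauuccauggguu
miR-146b-5p: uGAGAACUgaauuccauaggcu
miR-146b-3p: gCCCUAGGgacucaguucuggu

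miR-146a-5p and miR-146b-5p are identical at 20 of 22 positions and share the seed GAGAACU. The substitutions from miR-146a-5p to miR-146b-5p are G18A and U21C, counted from the 5′ end. No other mature miRNA among the 1679 names of the RefSeq table has that seed. Within that table, the seed of miR-21a-5p is shared with miR-21c alone, for which no entry was listed. miRNAs outside that table were not searched for these seeds. The listed names add lengths to 2 of the forms. The miR-21a-5p entry has the suffix R+1 and the miR-146b-5p entry R+2, read here as 1 and 2 extra bases at the 3′ end, although the sources used here do not define the suffix. Read from the RefSeq hairpin, the lengthened forms would be 23 and 24 bases long, with the seed and the added bases in capitals.
miR-21a-5p, R+1: uAGCUUAUcagacugauguugaC
miR-146b-5p, R+2: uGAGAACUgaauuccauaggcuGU

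The hairpins lie apart (GRCm38, placed by name; the submitters' processing notes name mm9, so these are not the authors' coordinates). The miR-21a hairpin lies on chromosome 11 from 86584067 to 86584158, minus strand, inside an exon, in its untranslated part, of the protein-coding gene Vmp1 on the same strand. The miR-146a hairpin is on chromosome 11 from 43374397 to 43374461, minus strand, overlapping no other GENCODE M21 gene; the nearest is the long noncoding RNA gene Gm12148, 11021 bp away. The miR-146b hairpin is on chromosome 19 from 46342762 to 46342870, plus strand, in an intron of Mfsd13a on the same strand. The hairpin of miR-155 lies on chromosome 16 from 84714140 to 84714204, in an exon of Mir155hg.

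Values are the authors' normalized read numbers, rounded to whole numbers, so depth is not known and counting intervals cannot be given, nor a limit on the level of miR-155. They summed to between 2570449 and 3268351 per library. The library si-NC replicate 3 stood apart: 578 of its 1080 entries were above 0, against 747 to 880 in the others, and limma's array weight, estimated from how closely a library follows its group, was 0.146, against 0.805 to 2.95. Results that rest on it are given with and without it. All 5 neuronal and neuroblastoma miRNAs sought had entries above 0 in all libraries, led by miR-7a-5p at 169637 ± 75643 with si-NC and 266929 ± 86621 with si-circCpsf6 (mean ± SD over 3 libraries, as throughout). This cannot check the cell label, since the mesenchymal miRNAs sought and endothelial miR-126a-3p were also above 0 in all libraries. By group means, miR-124-3p (319 and 467) and miR-9-5p (169 and 128) were below miR-126a-3p (3505 and 3597). miR-7a-5p, miR-218-5p and miR-138-5p were above it.

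The 5 entries kept 1 order of level in all 6 libraries: miR-21a-5p, miR-146b-5p, miR-146a-5p, miR-21a-3p, miR-146b-3p. The ranges of neighbours in that order, taken over all libraries, did not overlap. These are levels in normalized reads of mature forms of like length, with no scaling to length. The order is one of reads, and how it relates to amounts in the cell was not tested. By its mean over the libraries, miR-21a-5p ranked 7 of 1080, miR-146b-5p 65, miR-146a-5p 121, miR-21a-3p 362 and miR-146b-3p 555.

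**Figure D1:**
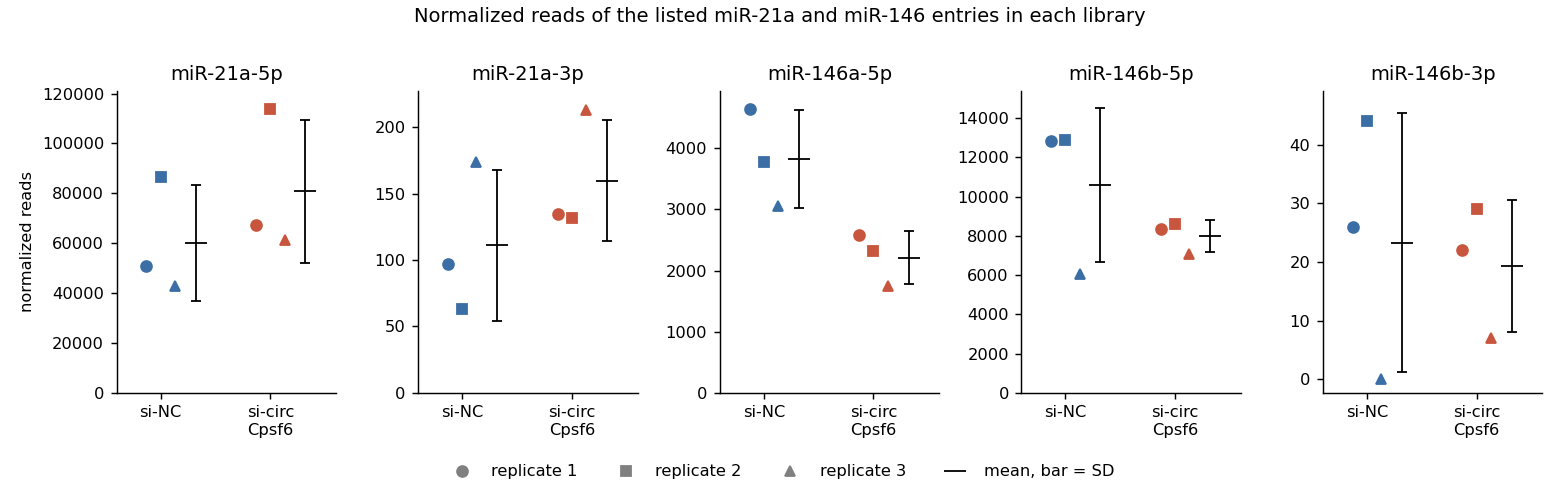
Normalized reads of the 5 listed entries (vertical axis, linear) in each si-NC (blue) and si-circCpsf6 (red) library; the marker shape gives the replicate number and the black bar the mean ± SD, n = 3. For miR-146a-5p the si-NC libraries lie between 3049 and 4649 and the si-circCpsf6 libraries between 1743 and 2577; the groups overlap for the other 4 entries.

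miR-146a-5p, the feedback inhibitor of NF-kB signalling, was listed at 4649, 3780 and 3049 in si-NC replicates 1, 2 and 3 and at 2577, 2320 and 1743 in the si-circCpsf6 replicates. Every si-NC library was above every si-circCpsf6 library. The means were 3826 ± 801 and 2213 ± 427, a ratio of 0.578. The log2 change was -0.79 (SE 0.28, 95% interval -1.43 to -0.14). This difference did not pass limma's test adjusted over all 916 entries tested (adjusted p = 0.553, unadjusted p = 0.0223 by limma). The unadjusted p ranked 37 of 916 from the smallest. With 1 library left out it ranked between 39 and 102, and it was above 0.05 without si-NC replicate 1 (unadjusted p = 0.0883 by limma), without si-NC replicate 2 (0.0561) and without si-circCpsf6 replicate 3 (0.0679). It was under 0.05 without si-circCpsf6 replicate 1 (unadjusted p = 0.0310 by limma) and without si-circCpsf6 replicate 2 (0.0459). Without si-NC replicate 3 it was 0.0087 by limma and ranked 59 of 932, in a fit where 13.6% of entries were under 0.05.

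By limma 0 of 916 entries had an adjusted p under 0.05 (0%), and 57 (6.22%) had an unadjusted p under 0.05, of which 27 were lower (2.95% of those tested). The share with an unadjusted p under 0.05 was 13.6% without si-NC replicate 3 and 22.9% with array weights. The groups did not overlap, with si-circCpsf6 lower, for 45 entries (4.91%). Among the 201 entries with a mean of 1000 or more, the level class of miR-146a-5p, that held for 18 (8.96%). 1 of the 5 members was in this class of separated, lower entries. The two-sided exact permutation test on the means of miR-146a-5p gave p = 0.1, the smallest that 3 against 3 libraries allow. In the authors' deposited table, the fold of miR-146a-5p was 0.58 with an unadjusted p of 0.053.

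As a share of the summed values, miR-146a-5p took 0.153%, 0.129% and 0.119% of the control libraries and 0.0897%, 0.0710% and 0.0605% of those given si-circCpsf6. The shares were apart in the same way as the values. Its rank within a library went from 87, 105 and 122 with si-NC to 125, 137 and 162 with si-circCpsf6, also without overlap. Without si-NC replicate 3 the log2 change was -0.94 (SE 0.23, limma adjusted p = 0.138), so the difference was at least as large without the library that stood apart. No 3p arm of miR-146a was among the listed entries.

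miR-146b-5p, which has the same seed, was listed at 12816, 12896 and 6071 with si-NC and at 8335, 8578 and 7079 with si-circCpsf6. All 3 si-circCpsf6 libraries lay below si-NC replicates 1 and 2 and above si-NC replicate 3, so the groups overlapped. The means were 10594 ± 3918 and 7997 ± 805, and the log2 change was -0.33 (SE 0.34, 95% interval -1.10 to 0.45, limma adjusted p = 0.904). Each control library moved this value: the log2 change was -0.69 without si-NC replicate 3 (SE 0.16, limma adjusted p = 0.129) and -0.15 when either si-NC replicate 1 or si-NC replicate 2 was left out.

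Summed, the 2 forms that share the seed were at 17465, 16676 and 9120 normalized reads with si-NC and at 10912, 10898 and 8822 with si-circCpsf6. Of the controls, replicate 3 fell inside the range spanned by the si-circCpsf6 libraries. miR-146a-5p made up 26.6%, 22.7% and 33.4% of that sum with si-NC and 23.6%, 21.3% and 19.8% with si-circCpsf6. The shares overlapped between the groups through si-NC replicate 2. How reads that fit both forms were assigned is not given in the sources used here, so the split between them is uncertain.

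The other arm of the miR-146b hairpin, miR-146b-3p, was low in normalized reads. It was listed at 26, 44 and 0 with si-NC and at 22, 29 and 7 with si-circCpsf6. The si-circCpsf6 libraries all lay within the si-NC range. Its log2 change of 0.73 (SE 1.47, limma adjusted p = 0.977) has the opposite sign to the difference of the means (23.3 ± 22.1 and 19.3 ± 11.2), since si-NC replicate 3 was listed at 0. Without that library it was -0.98, and no direction is read from this entry. The entries named bta-miR-146a and cja-miR-146b, after cattle and marmoset, fell outside the rule and were low, at 0 to 12 and 0 to 8 over the libraries.

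miR-21a-5p, the most abundant member, was listed at 50917, 86558 and 43002 with si-NC and at 67298, 113697 and 61401 with si-circCpsf6. Replicate 2 was the highest library in both groups, and si-NC replicate 2 lay above si-circCpsf6 replicates 1 and 3. The log2 change was 0.44 (SE 0.37, 95% interval -0.42 to 1.29, limma adjusted p = 0.884), which in fold runs from 0.748 to 2.45. The value moved with single libraries, from 0.16 without si-circCpsf6 replicate 2 to 0.73 without si-NC replicate 2, and was 0.23 without si-NC replicate 3. Each si-circCpsf6 replicate lay above the si-NC replicate of the same number. With the replicate number as a block the log2 change was 0.44 (SE 0.15, limma adjusted p = 0.442, unadjusted p = 0.0401 by limma). In that fit 87 of the 916 entries (9.5%) had an unadjusted p under 0.05, and miR-21a-5p ranked 75. Whether the replicate numbers pair the libraries was not settled. The change of miR-21a-5p was in no case past the threshold.

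As a share of the summed values, miR-21a-5p held 2.10 ± 0.742% with si-NC and 2.65 ± 0.725% with si-circCpsf6. It ranked 12, 6 and 13 among the entries of si-NC replicates 1, 2 and 3, and 7, 3 and 9 among those of the si-circCpsf6 replicates. These ranks overlap, as the values do. In bulk RNA, a difference in the number of cells that hold a miRNA and one in its amount per cell cannot be told apart.

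miR-21a-3p, the arm that is mostly discarded, was listed at 97, 63 and 174 with si-NC and at 135, 132 and 213 with si-circCpsf6. Replicate 3 was the highest in both groups, unlike for the 5p arm. The means were 111 ± 56.9 and 160 ± 45.9, with a log2 change of 0.61 (SE 0.51, 95% interval -0.57 to 1.78, limma adjusted p = 0.884). Without si-NC replicate 2 the log2 change was 0.26 and without si-NC replicate 3 it was 0.99.

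**Figure D2:**
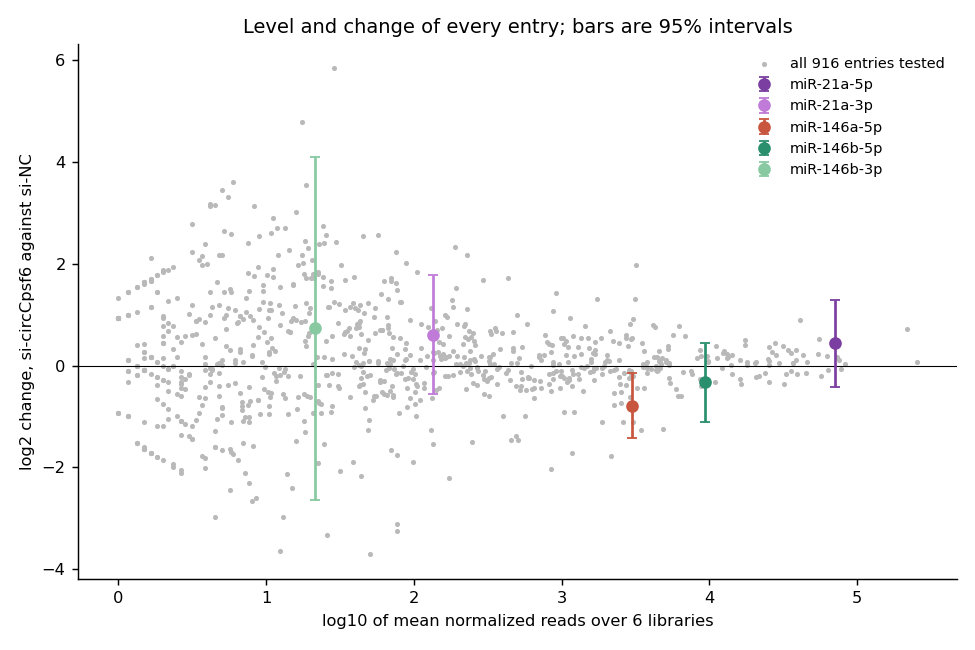
Log2 change of si-circCpsf6 against si-NC (vertical axis, log2(value + 1) scale) against the log10 of the mean normalized reads (horizontal axis) for 916 entries in grey, with the 5 members in colour and their 95% intervals as bars. The interval of miR-146a-5p, -1.43 to -0.14, is the one among the members that does not reach 0.

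The balance of the arms was compared in the 192 mouse hairpins whose arms were both listed with a mean of 1 or more. For miR-21a the 3p arm was at 1.91, 0.728 and 4.05 reads per 1000 of the 5p arm with si-NC and at 2.01, 1.16 and 3.47 with si-circCpsf6. The groups covered nearly the same range, and within each group replicate 3 was the highest and replicate 2 the lowest. The log2 change of the ratio was 0.17 (SE 0.76, limma adjusted p = 0.998 over the hairpins). It turned to -0.47 without si-NC replicate 2 and to -0.22 without si-circCpsf6 replicate 3. For miR-146b the 3p arm was at 2.03, 3.41 and 0 per 1000 with si-NC and at 2.64, 3.38 and 0.989 with si-circCpsf6 (log2 change 1.06, SE 1.23, limma adjusted p = 0.998), and the log2 change was -0.29 without si-NC replicate 3. By limma 0 of the 192 hairpins passed (0%).

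Ratios of entries within a library are unchanged where a library is scaled by a single factor; whether the authors' normalization did so is not given in the sources used here. miR-21a-5p was listed at 11.0, 22.9 and 14.1 times the value of miR-146a-5p with si-NC and at 26.1, 49.0 and 35.2 times with si-circCpsf6. The groups did not overlap. Against miR-146b-5p the ratio was 3.97, 6.71 and 7.08 with si-NC and 8.07, 13.3 and 8.67 with si-circCpsf6, again without overlap. miR-146b-5p was at 2.76, 3.41 and 1.99 times miR-146a-5p with si-NC and at 3.23, 3.70 and 4.06 times with si-circCpsf6, where si-NC replicate 2 lay above si-circCpsf6 replicate 1. The 3 pairs share their members, were not tested, and are a description. Of the 20100 pairs of entries with a mean of 1000 or more, 16.4% had ratios that did not overlap between the groups.

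**Figure D3:**
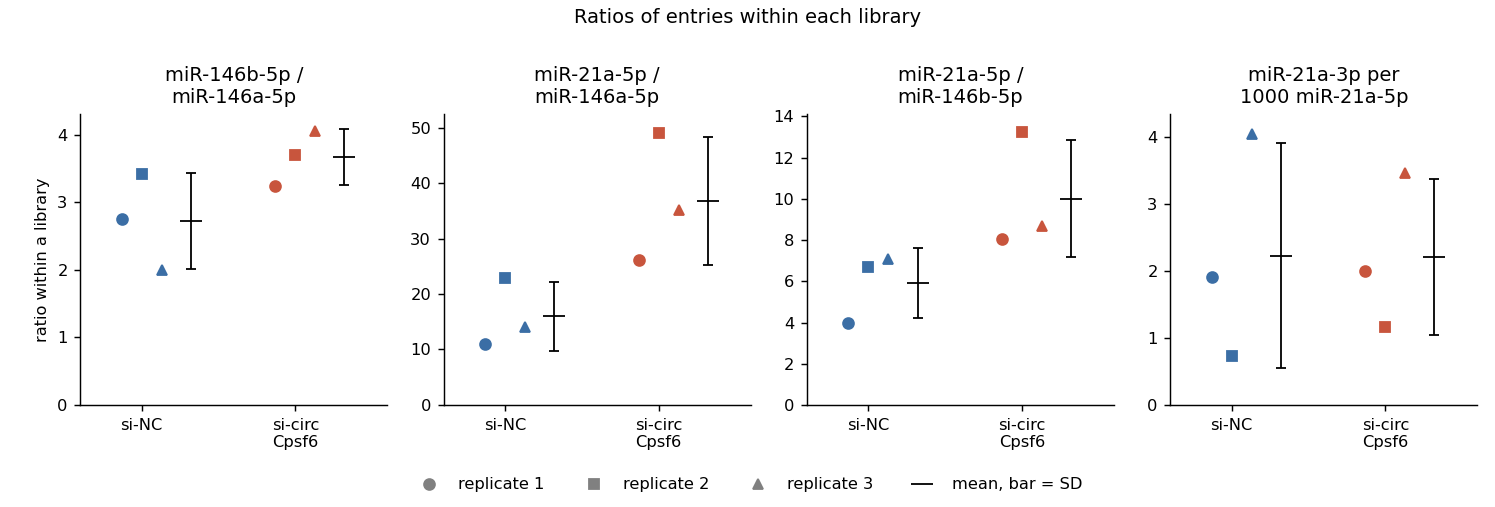
Ratios of normalized reads of 2 entries within each library (vertical axes, linear) with si-NC (blue) and si-circCpsf6 (red), with the replicate as marker shape and the mean ± SD as black bars, n = 3. The ratio of miR-21a-5p to miR-146a-5p is 11.0 to 22.9 with si-NC and 26.1 to 49.0 with si-circCpsf6; the arm ratio of miR-21a covers like ranges in both groups.

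Correlations among the members over the 6 libraries differed in sign. On log2 values, Pearson's r was 0.71 between miR-146a-5p and miR-146b-5p (Spearman's rho 0.54), -0.25 between miR-21a-5p and miR-146a-5p (rho -0.31) and -0.35 between the arms of miR-21a (rho -0.43). It was -0.90 between miR-146b-5p and miR-21a-3p (rho -0.94), -0.76 between miR-146a-5p and miR-21a-3p (rho -0.71) and 0.30 between miR-21a-5p and miR-146b-5p (rho 0.54). The libraries share their normalization and differ by group, so these are descriptions. Among 342 other mouse entries with a mean of 100 or more, those most like miR-21a-5p by Pearson's r were miR-450b-5p (r = 0.98, rho = 1, and 0.98 without its 2 libraries farthest from the median), miR-883a-3p (0.96, 0.94 and 0.99) and miR-450b-3p (0.96, 0.94 and 0.74). Those most like miR-146a-5p were mir-297a-2-p3 (0.99, 1 and 0.94), a let-7j variant (0.99, 1 and 0.99) and miR-344f-3p (0.96, 0.94 and 0.99). Those most like miR-146b-5p were miR-1983 (0.98, 0.89 and 0.98), miR-5099 (0.96, 0.94 and 0.89) and miR-1843a-5p (0.95, 0.94 and 0.99). These entries were picked for their high r over 6 libraries, and no test is given.

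Of 20 other miRNAs linked to inflammation or NF-kB signalling, 18 had entries and all 18 were tested. None passed limma's adjusted test in either direction (0 higher, 0 lower, lowest adjusted p = 0.735). Their median log2 change was 0.21, with 12 above 0 and 6 below (10 above 0 without si-NC replicate 3), beside 0.086 over all 916 entries, of which 510 were above 0. That overall median was -0.064 without si-NC replicate 3, where the list's was 0.17, and 0.015 with libraries rescaled to equal totals, where the list's was 0.13. The groups did not overlap for 2 of them, 1 higher and 1 lower, beside 11.7% of all entries (6.77% higher and 4.91% lower).

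The 4 most abundant of these 18 were members of growth-linked or widely expressed families. miR-20a-5p of the miR-17-92 cluster was at 33951 ± 5657 with si-NC and 42971 ± 13246 with si-circCpsf6, and miR-17-5p of the same cluster at 22385 ± 3516 and 28754 ± 4986. miR-27a-3p was at 24325 ± 10555 and 25515 ± 6393. miR-125b-5p, which shares its seed with miR-125a-5p, was at 13480 ± 3994 and 15175 ± 2061. All 4 had overlapping groups. The 2 without overlap, named after their values were seen, were the NF-kB-induced miR-9-5p, lower at 172, 180 and 154 against 147, 153 and 83, and miR-132-3p, a miRNA induced by neuronal activity, higher at 2312, 2507 and 2393 against 3641, 3927 and 2897.

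**Figure D4:**
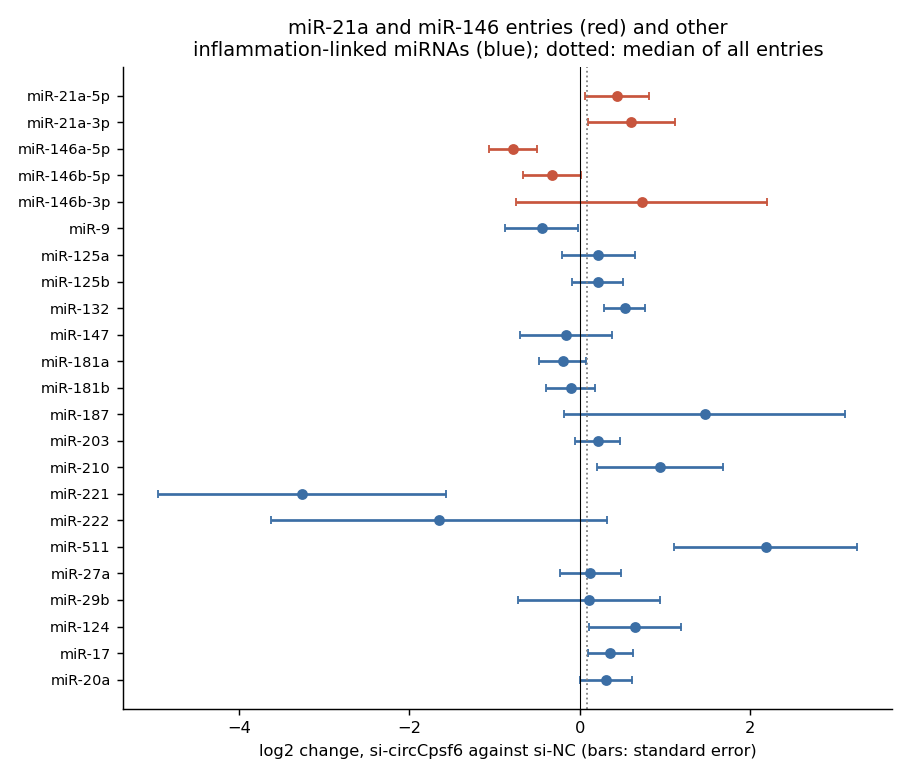
Log2 change of si-circCpsf6 against si-NC (horizontal axis, bars are standard errors) of the 5 member entries in red and of 18 other inflammation-linked miRNAs in blue; the dotted line is the median of all entries, 0.086. The miRNAs lie on both sides of 0, 12 of the 18 above it, and none passed the adjusted test.

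Apart from miR-342-3p, miRNAs that define blood and immune cells were low or had no entry. Of 8 sought, the myeloid miR-223 and the pan-haematopoietic miR-142a had no entry. The erythroid miR-451a was above 0 in 2 libraries and miR-144 in 2, and miR-486a averaged 0.667 with si-NC and 0 with si-circCpsf6. miR-150-5p of lymphocytes was at 26, 29 and 27 and at 28, 20 and 7, and miR-511-3p of macrophages at 0, 5 and 0 and at 4, 7 and 13. The remaining one, miR-342-3p, which the brain also expresses, was at 20338 ± 4874 and 20690 ± 3397 and made up nearly all of the list's sum, which ran from 15767 to 25457 with si-NC and from 18275 to 24594 with si-circCpsf6. None of the 5 tested passed (0 higher, 0 lower, median log2 change 0.040, or -0.064 without si-NC replicate 3).

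miRNAs of mesenchymal cells, where miR-21 is also abundant, had entries for 4 of 4 sought, with a summed value of 66409 to 105495 with si-NC and 84794 to 107228 with si-circCpsf6; none was at 0. All 4 had log2 changes above 0, beside 510 of all 916 entries, and none passed limma's adjusted test (median 0.57, or 0.29 without si-NC replicate 3). With array weights 3 of the 4 were above 0 (median 0.31). Their part in the values of miR-21a was not tested.

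Across other pseudocounts, filters and scalings and with each library left out, the sign of the log2 change held for miR-21a-5p, miR-21a-3p, miR-146a-5p and miR-146b-5p and not for miR-146b-3p. Rescaling the libraries to equal totals gave -0.87 for miR-146a-5p, -0.41 for miR-146b-5p and 0.36 for miR-21a-5p. No member passed limma's adjusted test under any of the 18 settings, the lowest adjusted p being 0.0550 for miR-146a-5p with array weights.

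**Figure D5:**
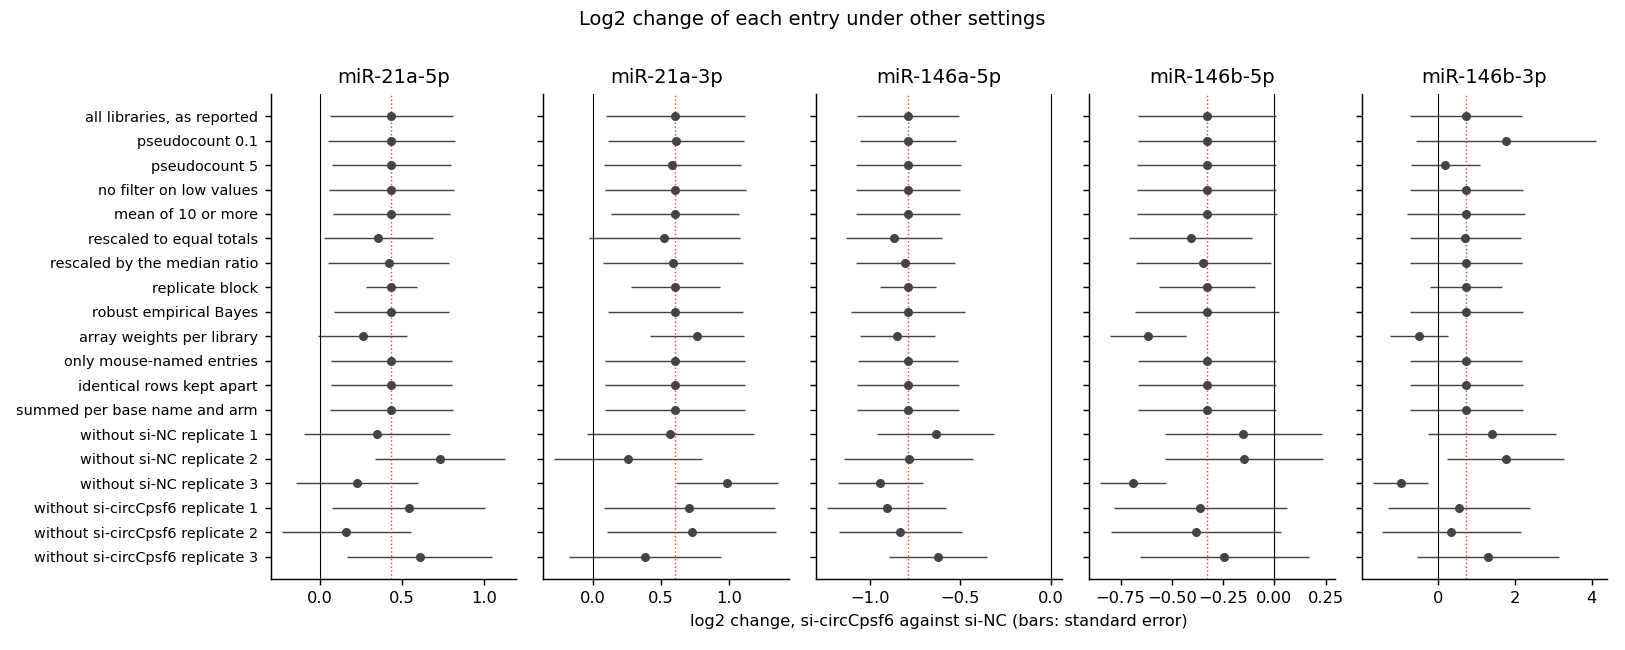
Log2 change of si-circCpsf6 against si-NC (horizontal axes, bars are standard errors) of each member entry with all libraries and under 18 other settings; the dotted line is the value as reported and the solid line is 0. miR-146a-5p stays between -0.94 and -0.62, whereas miR-146b-3p lies on both sides of 0, from -0.98 to 1.77.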

How the data were processed

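Per the labels' protocols, N2A cells were given si-NC or si-circCpsf6, total RNA was prepared with Trizol and made into libraries with the TruSeq small RNA kit. Per the file headers, each value is a normalized read number per entry. The deposited values are treated as a score, since they are normalized and rounded and are not raw counts. How reads were aligned, counted and normalized is not given in the sources used here. A fold, its log2 and a p-value from the authors' own comparison were deposited too and are quoted as theirs.

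Samples were grouped by their titles. Of 178 rows repeating the values of an earlier row, copies were merged, which left 1046 entries. Of these, 916 averaged at least 1 over the libraries and were tested by limma 3.58.1 (trended variance, R 4.3.3) on log2(value + 1), at an adjusted p (Benjamini-Hochberg) of 0.05. Log2 changes are on that scale, which understates changes of low entries. Arm ratios (3p minus 5p, most abundant entry per arm) were tested by limma without trend. The fit was tested on simulated data. Other calculations used Python 3.11.15, pandas 2.3.3, numpy 2.4.6, scipy 1.17.1 and matplotlib 3.10.9.

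All listed members are named. Of the inflammation and blood cell lists, the most abundant (up to 4) are named by rule, and the other blood cell members were named after their values were seen. The mesenchymal list is given by counts and sums, and the neuronal and endothelial miRNAs are named, after their values were seen. For each member base name listed, the 3 entries of highest Pearson's r are given. The members and the lists were chosen with earlier results of these data known. Alternatives were other pseudocounts, filters, scalings, each library left out, a replicate block, a robust variance, array weights, mouse names alone, unmerged rows and summed variants.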

Additional observations from a re-analysis of the deposited data

How the results depend on the processing

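Over 18 alternatives, miR-146a-5p kept a log2 change below 0 (-0.94 to -0.62, limma adjusted p 0.0550 to 0.907), as did miR-146b-5p (-0.69 to -0.15, 0.10 to 0.979), and miR-21a-5p (0.16 to 0.73, 0.442 to 0.979) and miR-21a-3p (0.26 to 0.99, 0.217 to 0.979) kept one above 0; none of these passed the threshold under any of them. miR-146b-3p ran from -0.98 (without si-NC replicate 3) to 1.77 (without si-NC replicate 2) with 1 library left out and turned to -0.50 with array weights, where si-NC replicate 3 gets little weight. With 1 library left out, the arm ratio of miR-21a ran from -0.47 to 0.76, below 0 without si-NC replicate 2 and without si-circCpsf6 replicate 3 (-0.22), and that of miR-146b from -0.29 (without si-NC replicate 3) to 1.91; the cause was not tested. The number of entries passing was 0, but 31 with array weights and 0 to 4 with 1 library left out (4 without si-NC replicate 3), and the number of arm ratios 0, but 3 with array weights and 0 to 2 with 1 library left out. No member was among those.

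Whether the replicate numbers pair the libraries was not settled. Deviations from the group means correlated at 0.047, 0.48 and 0.40 for numbers 1, 2 and 3. Replicate 1 of si-NC correlated at 0.18 with replicate 2 of si-circCpsf6 and at -0.20 with replicate 3. For si-NC replicate 2 the values were -0.040 and -0.40 with si-circCpsf6 replicates 1 and 3. For si-NC replicate 3 they were -0.0028 and -0.44 with si-circCpsf6 replicates 1 and 2. With the replicate block, miR-146a-5p had a log2 change of -0.79 (SE 0.16, limma adjusted p = 0.254). Its unadjusted p was 0.0053 by limma and ranked 19 of 916. That of miR-21a-5p was 0.44 (SE 0.15, limma adjusted p = 0.442) and that of miR-146b-5p -0.33 (SE 0.23, limma adjusted p = 0.642). In that fit 0 entries passed and 87 had an unadjusted p under 0.05, against 57. Count tests were not run, since no raw counts could be had. The read depth is unknown, so a value of 0 gives no limit on the level of an entry.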
